A study of Mus musculus with 9 samples.

Results

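The genes described here are 9 factors that mark oligodendrocyte progenitors and steer their development: Pdgfra, Olig1, Olig2, Sox8, Sox10, Nkx2-2, Gpr17, Enpp6 and Myrf. They were taken by symbol from the 55401 genes of the deposited table. All 9 symbols were found once each, and all 9 passed the expression filter, a mean of at least 0.5 FPKM (fragments scaled to gene length and library size) over all libraries. The RNA came from peri-infarct brain tissue of mice labelled WT at day 28, and each of 3 groups held 3 libraries. Sham mice received ultrapure water by gavage; how their tissue was placed is not stated. PT mice had photothrombosis, a stroke model in which illumination of a circulating dye clots brain vessels, and received the same water. Pushen mice had photothrombosis and received Pushen, a commercial drug preparation, in water by gavage starting 24 h after the operation, at labelled doses of 391, 392 and 393 mg/kg in libraries 1, 2 and 3. The sources used here give no strain, sex or age, and do not say whether a library is 1 animal, so each p-value reflects only variation among these libraries, possibly technical.

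Oligodendrocytes wrap axons in myelin and arise throughout life from progenitors scattered through grey and white matter. Progenitors carry PDGFRA, the receptor for the mitogen PDGF-A, and divide in response to it. The basic helix-loop-helix factors OLIG1 and OLIG2 and the SOXE factors SOX8 and SOX10 are present from the progenitor to the myelinating cell, with OLIG2 setting lineage identity and SOX10 driving myelin genes. NKX2-2 takes part in the step out of the progenitor state. GPR17, a G protein-coupled receptor, and ENPP6, a choline phosphodiesterase, peak in committed and newly formed oligodendrocytes, and MYRF is the membrane-bound transcription factor that switches on and maintains myelin genes. After cortical injury, progenitors are known to divide around the lesion.

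RefSeq promoter sequences (build GRCm38.p6) were given for 5 of the 9 members. The 250 bases before the start are printed for Sox8 and Pdgfra, the members whose levels were most even among the PT libraries. Capitals mark the E-box CANNTG, the type of site that OLIG and other basic helix-loop-helix factors bind. The SOX core ACAAT was searched too, and both motifs on both strands.
Sox8, chr17:25570687-25570936, minus strand: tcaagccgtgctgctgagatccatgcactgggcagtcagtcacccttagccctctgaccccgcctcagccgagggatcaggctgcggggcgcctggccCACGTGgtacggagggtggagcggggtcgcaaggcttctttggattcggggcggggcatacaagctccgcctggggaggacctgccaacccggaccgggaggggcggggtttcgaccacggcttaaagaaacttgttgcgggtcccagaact
Pdgfra, chr5:75152001-75152250, plus strand: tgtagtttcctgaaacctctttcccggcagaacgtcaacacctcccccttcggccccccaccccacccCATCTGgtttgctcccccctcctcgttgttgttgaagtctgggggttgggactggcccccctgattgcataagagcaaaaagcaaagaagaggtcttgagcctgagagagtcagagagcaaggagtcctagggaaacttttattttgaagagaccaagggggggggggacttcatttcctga
The Sox8 window held 1 E-box, beginning 152 bases before the start, and the Pdgfra window 1, beginning 182 bases before it. Neither held the SOX core. Of 32851 promoter windows of this length, 66.2% held an E-box and 27.7% a SOX core, so such matches are common and describe only these letters.

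On the build GRCm38, which the deposited coordinates follow, Pdgfra lies on chromosome 5 from 75152292 to 75198215 and Enpp6 on chromosome 8 from 46986887 to 47096762, both on the plus strand. Olig2 (91225457 to 91228677) and Olig1 (91269772 to 91271933) are neighbours on the plus strand of chromosome 16, 41095 bases apart. Sox8 lies on chromosome 17 from 25565892 to 25570686, Sox10 on chromosome 15 from 79154908 to 79165240 and Myrf on chromosome 19 from 10208272 to 10240748, all on the minus strand. Gpr17 (chromosome 18, 31942997 to 31949636) and Nkx2-2 (chromosome 2, 147177546 to 147194242) are also on the minus strand, and Nkx2-2 is the 1 member whose ends differ from GENCODE M21. Whether reads were counted by strand is not stated, and 2 members share sequence with an antisense gene that passed the filter. Cerox1 overlaps the first 329 bases of Sox8, and Lims2 spans all of Gpr17.

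Total counts per library lay between 57437342 and 75100133, and the members' counts between 217 and 11462 per library, lowest for Nkx2-2 and highest for Olig1. The labels' extraction protocol speaks of retinas, while the tissue label is brain. The photoreceptor gene Sag, which encodes arrestin, reached at most 0.23 FPKM in any library, and the forebrain neuron gene Slc17a7, the glutamate transporter of cortical synaptic vesicles, was at least 138.83 FPKM in every library. Markers of other regions and of myelin differed among the infarct libraries, and regional markers lay above sham in most of them. The mean level of 8 striatal neuron genes was 3.53, 1.29 and -0.00 log2 units above the sham mean in PT libraries 1, 2 and 3. In Pushen libraries 1, 2 and 3 it was 0.94, 0.92 and 0.33, and the sham libraries ranged from -0.09 to 0.16. The 5 tested choroid plexus genes stood at 3.74, 0.98 and 1.70 in PT and at 1.41, 3.95 and 2.04 in Pushen, with sham between -0.38 and 0.37. The part of this regional content in the members' results was not tested. Mature myelin genes were near the sham level in PT library 3, as described below. In bulk tissue, fewer cells of a type and less RNA per cell cannot be told apart.

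PT was compared with sham to ask how the lineage factors stood in peri-infarct tissue at day 28. All 9 were higher on average, and 6 passed the test: Myrf, Sox10, Sox8, Pdgfra, Olig1 and Gpr17. Their fitted rises ran from 1.46-fold for Gpr17 to 1.95-fold for Myrf. Enpp6, Nkx2-2 and Olig2 did not pass. Over all 16740 genes tested in the same fit, 19.1% were called higher, 11.8% lower and 30.9% in either direction. At an unadjusted p under 0.05 there were 7 members, beside 42.9% of all tested genes. The FPKM of 6 members was higher in every PT library than in every sham library, beside 29.3% of all tested genes (18.6% were apart and lower). With a 2-fold minimum added, 0 members and 10.4% of all tested genes were called. The median log2 fold change of the members was 0.69, beside a median of -0.00 over all tested genes. The test was edgeR's quasi-likelihood test with Benjamini-Hochberg adjustment over all tested genes, and an adjusted p under 0.05 was called. Without sham library 1, and likewise without sham library 2, the members called fell to 3 (Sox8, Pdgfra and Myrf), and without PT library 3 they numbered 8. All genes called in these 3 fits numbered 3198, 3365 and 5799 of 16740, beside 5176 in the main fit, so the total moved the same way. After quantile normalization, which gave a median log2 fold change of -0.14 over all tested genes and moved the split of called genes from 3202 higher and 1974 lower to 2510 and 3490, 5 members were called and Nkx2-2 stood at -0.03.

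Pdgfra, the receptor by which progenitors respond to PDGF-A, was measured at 4.27, 4.06 and 4.49 FPKM in sham, 7.50, 7.12 and 6.92 in PT and 7.04, 7.77 and 5.30 in Pushen. All infarct libraries lay above all sham libraries, and Pushen library 3 was the lowest of them. The fitted log2 fold change in PT was 0.69 ± 0.12 (SE), with an adjusted p of 0.00400 from edgeR. The mean rose from 4.27 ± 0.215 to 7.18 ± 0.295 FPKM (SD, n = 3 each). Fibroblasts of the meninges and of vessel walls also make PDGFRA, and 8 of 9 fibroblast markers were tested, all 8 of which rose in PT. The 9 markers summed to between 14.5 and 16.1 FPKM in sham, between 112 and 183 in PT and between 64.9 and 165 in Pushen. Library 3 was the lowest in Pushen. Astrocyte, microglia and pericyte markers also had their lowest Pushen sum in library 3, while mature myelin genes had theirs in library 2. Among the fibroblast markers the collagen Col3a1 rose by 5.24 ± 0.48 on the log2 scale. The collagens Col1a1 and Col1a2 and the proteoglycans Dcn and Lum were above 0 in every library. The part of fibroblasts in the Pdgfra result was not tested.

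Sox10, the SOXE factor that activates myelin genes, stood at 9.14, 10.6 and 13.6 FPKM in sham. It reached 24.7, 25.2 and 14.7 FPKM in PT and 18.3, 15.7 and 19.8 in Pushen. PT and sham did not overlap, but PT library 3 lay 1.08 FPKM above sham library 3. The log2 fold change in PT was 0.90 ± 0.22 (adjusted p = 0.0142, edgeR). Without sham library 1 or 2 the adjusted p was 0.0582 and 0.0520, and without PT library 1 and Pushen library 2 together it was 0.0593. Schwann cells of peripheral nerve use SOX10 too. Of 6 Schwann cell markers none passed the filter, the 6 summed to between 0.55 and 1.18 FPKM over the libraries, and Pmp2, a peripheral myelin protein, was listed at 0 in all 9 libraries.

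Sox8, a SOXE partner of SOX10 that astrocytes also express, was the most even of the members within PT. It stood at 7.83, 7.64 and 8.73 FPKM in sham, at 14.6, 14.6 and 15.1 in PT and at 9.77, 11.5 and 9.64 in Pushen. The 3 groups were fully apart, with Pushen between sham and PT. The log2 fold change in PT was 0.82 ± 0.09 (adjusted p = 0.000607, edgeR), the smallest p among the members. Its call held in each alternative fit except that with a 2-fold minimum, which no member reached. Of 8 astrocyte markers 7 also rose in PT. The 8 summed to between 269 and 302 FPKM in sham, between 551 and 836 in PT and between 466 and 684 in Pushen. Their order among the PT libraries was another: the sum was 836, 736 and 551 FPKM in libraries 1, 2 and 3, while Sox8 was highest in library 3. Gfap, the astrocyte intermediate filament, ranged from 12.5 to 20.3 FPKM in sham and from 187 to 443 in PT. The part of astrocytes in the Sox8 result was not tested. Cerox1, a noncoding RNA that starts inside Sox8 on the other strand, followed another order, with 2.34, 2.34 and 8.75 FPKM in sham, 5.23, 4.70 and 2.97 in PT and 4.14, 2.94 and 3.65 in Pushen. Its log2 fold change in PT was -0.11 ± 0.48 (adjusted p = 0.884, edgeR).

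Olig1 was the most abundant member, at 28.6, 29.1 and 35.8 FPKM in sham, 65.3, 52.4 and 39.3 in PT and 42.7, 43.4 and 46.4 in Pushen. Its log2 fold change in PT was 0.69 ± 0.17 (adjusted p = 0.0149, edgeR), and PT and sham did not overlap. Without sham library 1 or 2 the adjusted p was 0.0585 and 0.0567, and without PT library 1 and Pushen library 2 together 0.0534. Olig2, its neighbour on chromosome 16, stood at 8.09, 7.41 and 8.24 FPKM in sham, 11.9, 9.66 and 7.11 in PT and 9.80, 9.68 and 9.87 in Pushen. PT library 3 was below every sham library, and PT library 1 was above every other library. The log2 fold change in PT was 0.21 ± 0.16 (adjusted p = 0.337, edgeR). Single libraries moved this value both ways. Without PT library 3 it was 0.38 ± 0.11 and was called (adjusted p = 0.0341), and without PT library 1 it was 0.027 ± 0.13 (adjusted p = 0.905, edgeR). After quantile normalization it was 0.064.

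Among the factors of committed and differentiating cells, Myrf had the largest fitted rise of the members. It stood at 4.26, 4.93 and 6.17 FPKM in sham, 12.6, 11.4 and 7.21 in PT and 10.7, 8.5 and 9.62 in Pushen. Every infarct library was above every sham library, with PT library 3 the closest to sham. The log2 fold change in PT was 0.96 ± 0.21 (adjusted p = 0.00864, edgeR). Gpr17 was even in sham, at 5.08, 5.04 and 5.23 FPKM, and uneven in PT, at 6.74, 10.4 and 6.22, with Pushen at 8.02, 8.65 and 7.22. All infarct libraries were above sham, and the log2 fold change in PT was 0.54 ± 0.17 (adjusted p = 0.0404, edgeR). Without PT library 2 the log2 fold change was 0.29 and was not called (adjusted p = 0.0621). Leaving out any 1 of the sham libraries also ended the call (adjusted p = 0.0996, 0.107 and 0.0889 for libraries 1, 2 and 3), as did leaving out Pushen library 1 (0.0598) or Pushen library 2 (0.0523), testing with no filter (0.0816), fitting only the PT and sham libraries (0.0677), quantile normalization with limma (0.0640) and leaving out PT library 1 with Pushen library 2 (0.0555). Lims2, whose gene spans Gpr17 on the other strand, had a log2 fold change of 0.02 ± 0.23 (adjusted p = 0.964).

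Enpp6 and Nkx2-2 were the least abundant members. Enpp6 stood at 0.83, 0.80 and 1.16 FPKM in sham, 2.11, 1.85 and 0.84 in PT and 1.91, 1.76 and 1.58 in Pushen. PT libraries 1 and 2 were above all sham libraries, and PT library 3 lay within their range. The log2 fold change in PT was 0.71 ± 0.30 (adjusted p = 0.102, edgeR). Without PT library 3 it was 1.01 ± 0.18 and was called (adjusted p = 0.00479), and without PT library 1 it was 0.46 ± 0.31 (adjusted p = 0.317, edgeR). It was 0.30 after quantile normalization and 0.40 on the log2(FPKM + 1) scale, with limma. Nkx2-2 stood at 0.99, 1.19 and 1.39 FPKM in sham, 1.87, 2.04 and 1.20 in PT and 1.96, 1.24 and 1.4 in Pushen. Its groups overlapped in each comparison, and the log2 fold change in PT was 0.45 ± 0.25 (adjusted p = 0.194, edgeR). The antisense gene Nkx2-2os had between 20 and 72 counts per library, beside 217 to 504 for Nkx2-2.

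**Figure D1:**
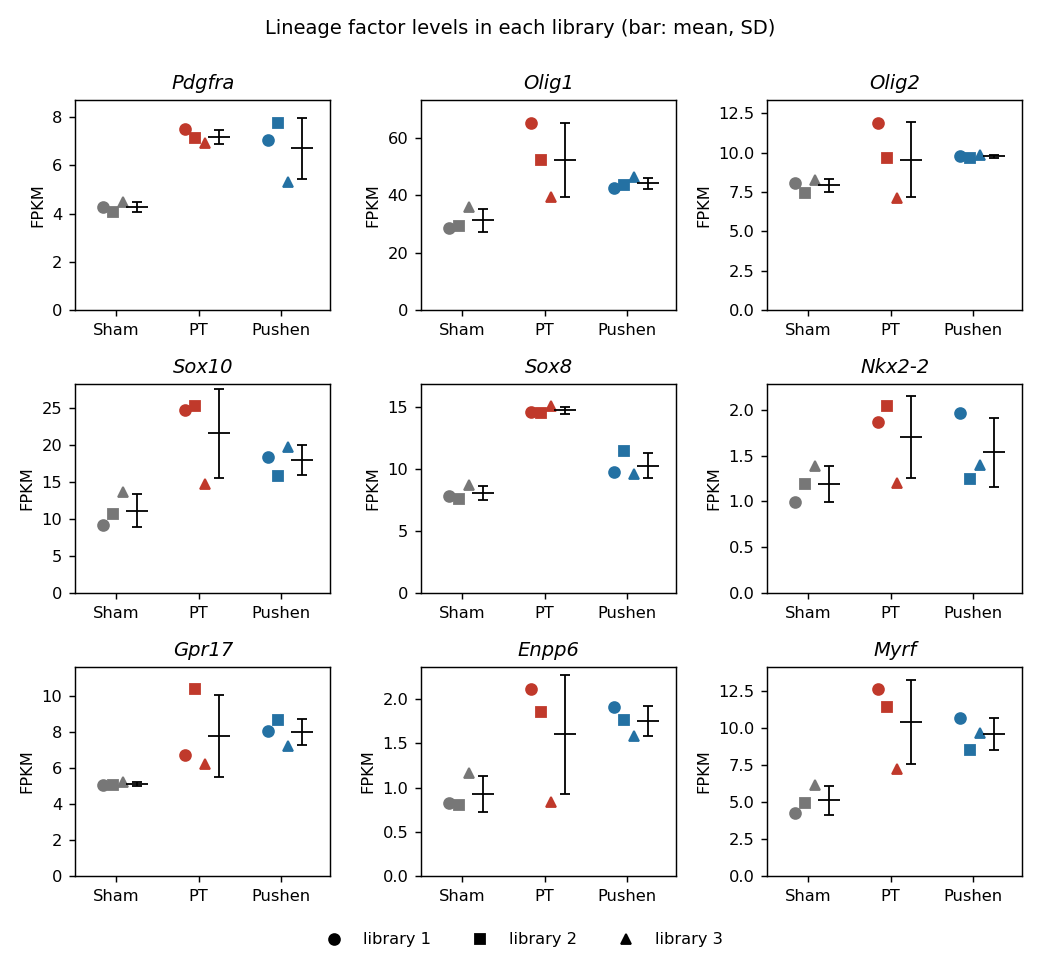
FPKM of each lineage factor (vertical axes from 0) in the 3 sham, 3 PT and 3 Pushen libraries; symbols mark the library number, and the bar to the right of each group is its mean with the SD. Pdgfra and Sox8 were nearly level across the PT libraries, while in Olig2, Enpp6 and Nkx2-2 PT library 3 lay within or below the sham range.

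In FPKM, which is scaled to gene length and allows genes to be compared, Olig1 ranked first in each group, at 31.2 ± 4.03 in sham, 52.3 ± 12.97 in PT and 44.1 ± 1.96 in Pushen (SD, n = 3 each). Sox10 was second, with means of 11.1, 21.5 and 17.9 FPKM in the same order. In sham the order then ran Sox8, Olig2, Myrf, Gpr17, Pdgfra, Nkx2-2 and Enpp6. Neighbours in that order whose sham libraries overlapped were Sox8 with Olig2, Myrf with Gpr17 and Nkx2-2 with Enpp6. In PT, Myrf stood above Olig2 in the order of means, at 10.4 against 9.56 FPKM, but their libraries overlapped. The spread within PT was uneven between members. The coefficient of variation among the PT libraries was 1.98% for Sox8 and 4.10% for Pdgfra, between 24.8% and 29.0% for Olig1, Olig2, Nkx2-2, Myrf, Sox10 and Gpr17, and 41.9% for Enpp6. Among the Pushen libraries it was 0.982% for Olig2 and 4.43% for Olig1, and reached 24.7% for Nkx2-2.

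Pushen was compared with PT to ask whether the treatment moved the lineage factors after infarction. No member was called by edgeR, and none of the 16740 tested genes was (0% called). Sox8 was the 1 member whose Pushen libraries did not overlap the PT libraries, at 9.64 to 11.5 FPKM against 14.6 to 15.1. Over all tested genes, 5.19% were lower in Pushen with the groups fully apart and 7.25% were higher. The mean of Sox8 was 10.3 ± 1.04 FPKM with Pushen and 14.8 ± 0.293 in PT (SD, n = 3 each). Its fitted log2 fold change was -0.53 ± 0.09, with an unadjusted p of 0.000294 that ranked 3 among the tested genes and an adjusted p of 0.707 (edgeR). DESeq2's Wald test gave -0.52 ± 0.11 and an adjusted p of 0.00124, and called 48 genes in all. In the other alternatives the log2 fold change of Sox8 lay between -0.62 and -0.48 and was not called. At an unadjusted p under 0.05, edgeR gave 1086 genes (6.49%), and Sox8 was the 1 member among them. Astrocyte markers stood beside it at a median log2 difference of -0.16, with 0 of 8 called.

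The other 8 members overlapped between Pushen and PT, and their log2 fold changes ran from -0.27 ± 0.21 for Sox10 to 0.12 ± 0.30 for Enpp6. Olig1 stood at -0.25 ± 0.17, Nkx2-2 at -0.16 ± 0.25, Myrf at -0.12 ± 0.20 and Pdgfra at -0.11 ± 0.12. Olig2 and Gpr17 both stood at 0.03, with standard errors of 0.16 and 0.17. The direction was not stable for 6 of these 8: leaving out 1 or 2 infarct libraries turned the sign of Gpr17, Myrf, Olig2, Enpp6, Pdgfra or Nkx2-2. Pdgfra in Pushen library 3 (5.30 FPKM) lay below every PT library, while Pushen library 2 (7.77 FPKM) lay above every PT library. The SD was larger in PT than in Pushen for 7 of the 9 members, for example 12.97 against 1.96 FPKM for Olig1 and 2.40 against 0.0961 for Olig2. It was smaller in PT for Pdgfra (0.295 against 1.27 FPKM) and Sox8 (0.293 against 1.04). These differences in spread were not tested.

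Pushen was also compared with sham, to ask how the factors stood in treated infarct tissue. All 9 were higher on average, and 2 were called, Pdgfra and Myrf, where 13.5% of all tested genes were called higher, 2.73% lower and 16.2% in either direction. At an unadjusted p under 0.05 there were 7 members, beside 31.9% of all tested genes, and with a 2-fold minimum 0 members, beside 7.97%. Pdgfra had a log2 fold change of 0.58 ± 0.12 (adjusted p = 0.0133) and Myrf of 0.84 ± 0.21 (adjusted p = 0.0242, edgeR). The FPKM of 8 members was higher in every Pushen library than in every sham library, Nkx2-2 being the exception, and 27.2% of all tested genes were apart in that direction (13.1% in the other). Enpp6, which overlapped sham in PT, was 1.75 ± 0.165 FPKM with Pushen against 0.930 ± 0.200 in sham (SD, n = 3 each), with a log2 fold change of 0.84 ± 0.30 that was not called (adjusted p = 0.0932). Olig2 was 9.78 ± 0.0961 against 7.91 ± 0.442 FPKM, with a log2 fold change of 0.24 ± 0.16 (adjusted p = 0.338). Gpr17 (0.57 ± 0.17), Sox8 (0.29 ± 0.09) and Sox10 (0.63 ± 0.21) were close to the threshold, with adjusted p-values of 0.0534, 0.0669 and 0.0807 from edgeR. Olig1 stood at 0.44 ± 0.17 and Nkx2-2 at 0.30 ± 0.25 (adjusted p = 0.110 and 0.444). Without sham library 2 or Pushen library 1, 0 members were called, and with only the sham and Pushen libraries in the fit 6 were. The share of all tested genes called in these fits is not given beside them. The number of all genes called also varied as single libraries were left out, so these counts are not read as a result about the members. This comparison shares its sham libraries with PT against sham, so the values are given side by side and not as a repeat.

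**Figure D2:**
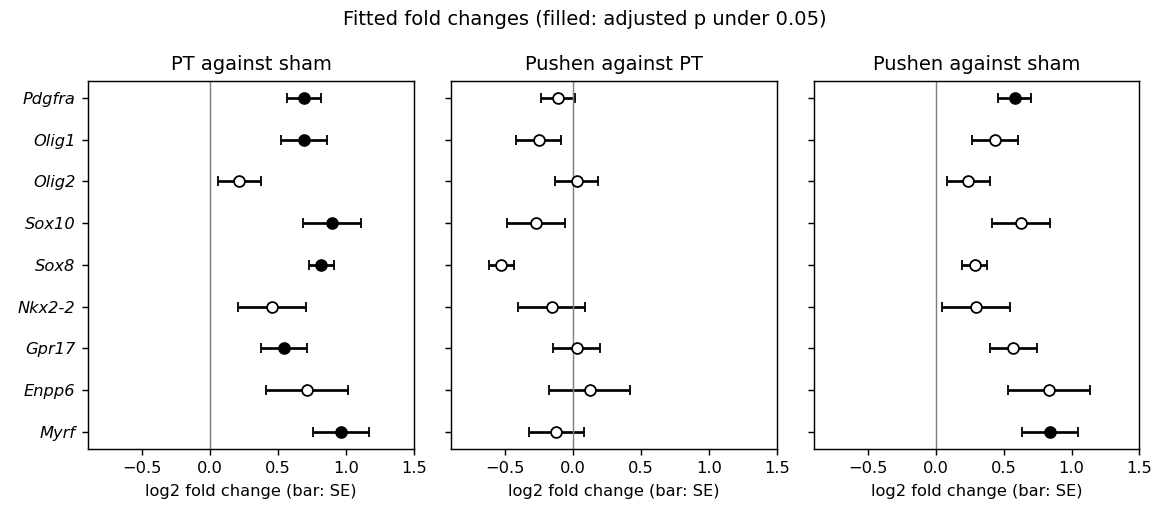
Fitted log2 fold change of each lineage factor (horizontal axes, with the SE as bars) in the 3 comparisons; filled points had an adjusted p under 0.05 in edgeR's quasi-likelihood test. Filled points number 6 for PT against sham, 0 for Pushen against PT and 2 for Pushen against sham, and Sox8 is the member farthest below 0 in Pushen against PT.

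The members differed in how they were spread over the infarct libraries, and mature myelin genes divided those libraries too. The 16 myelin genes, averaged as log2 CPM (counts scaled to library size), stood 1.00, 0.98 and 0.17 above the sham mean in PT libraries 1, 2 and 3. With Pushen they stood at 0.72, 0.59 and 0.77. Sham libraries 1, 2 and 3 stood at -0.09, -0.19 and 0.28, so PT library 3 lay below sham library 3. In PT, Sox10 stood at 1.11, 1.13 and 0.37 and Myrf at 1.26, 1.10 and 0.47. Enpp6 stood at 1.13, 0.93 and -0.17. Of the 9 members, 8 had their lowest PT value in library 3, where the myelin list was lowest too, and Sox8 had its highest there. This was not particular to the lineage. Fibroblast, astrocyte and microglia markers were also lowest in PT library 3, at 3.20, 1.02 and 0.90. Neuron markers, which fell in PT, were nearest to sham there, at -0.42. The choroid plexus and proliferation lists were lowest in PT library 2. The PT libraries were close together for Pdgfra, at 0.75, 0.67 and 0.65, and for Sox8, at 0.80, 0.79 and 0.86. Gpr17 stood at 0.34, 0.95 and 0.24, so that PT library 1 was low for it as well.

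Set against the myelin list within each library, Sox10 differed from its sham relation by 0.12, 0.16 and 0.20 log2 units in PT and by -0.06, -0.14 and 0.03 in Pushen, where the sham libraries ranged from -0.14 to 0.13. Myrf differed by 0.26, 0.13 and 0.29 in PT and by 0.27, 0.08 and 0.10 in Pushen, with sham between -0.13 and 0.14. Olig2 was lower against the myelin list in all 6 infarct libraries, at -0.47, -0.75 and -0.37 in PT and -0.49, -0.37 and -0.50 in Pushen, and none overlapped the sham range of -0.23 to 0.15. The myelin list itself stood 0.17 to 1.00 above sham in these libraries, so a gene that kept its sham level lies below 0 on this scale. The median log2 fold change over all tested genes was -0.003 in PT and -0.015 in Pushen against sham. The share of all tested genes that fell against the myelin list is not given, so this is not read as a trait of Olig2. Sox8 was uneven on this scale, at -0.20, -0.19 and 0.69 in PT and -0.52, -0.15 and -0.56 in Pushen. Pdgfra likewise stood at -0.24, -0.31 and 0.48 in PT and -0.08, 0.20 and -0.51 in Pushen. These relations are a description of 9 libraries. The part of uneven myelin content in the members' results was not tested.

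**Figure D3:**
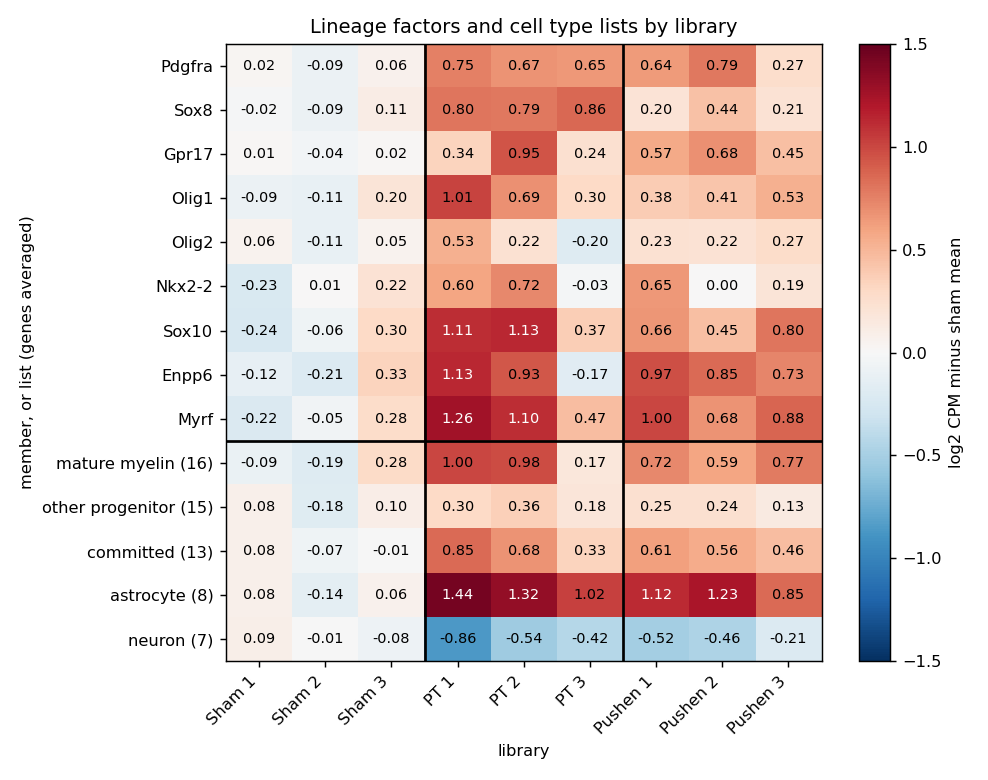
Log2 CPM minus the sham mean (colour and printed value) of each lineage factor (upper rows) and of 5 gene lists averaged over the number of genes in brackets (lower rows), in each of the 9 libraries (columns). PT library 3 is low for Sox10, Myrf, Enpp6 and the mature myelin list, at 0.37, 0.47, -0.17 and 0.17, while Pdgfra and Sox8 stand at 0.65 and 0.86 there.

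**Figure D4:**
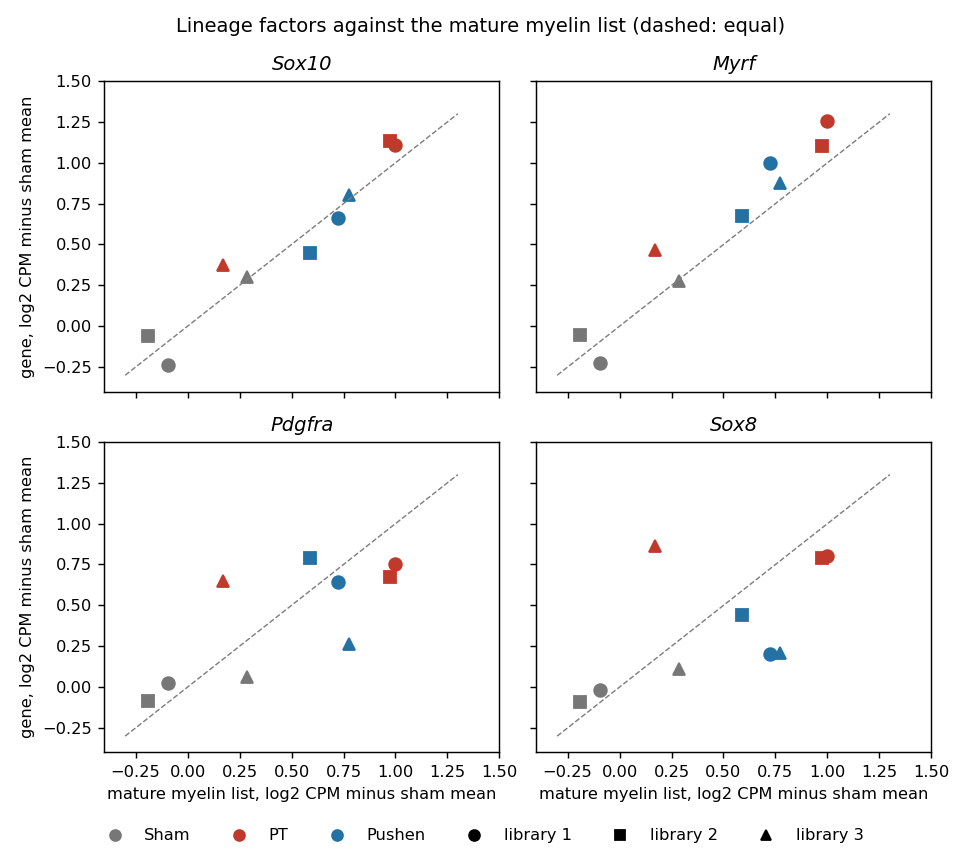
Log2 CPM minus the sham mean of Sox10, Myrf, Pdgfra and Sox8 (vertical axes) against that of the 16 mature myelin genes (horizontal axes) in each library; colour marks the group, symbol the library number and the dashed line equal values. Sox10 and Myrf lie within 0.30 log2 units of the line in every library, while PT library 3 lies 0.48 above it for Pdgfra and 0.69 above it for Sox8.

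The profile of each member over the 9 libraries was also compared with the 12109 tested protein-coding genes that have a given symbol and a mean of at least 1 FPKM. Likeness was the root mean square difference of log2 CPM after each gene was centred on its own mean. The nearest genes to Sox10 were Mag, a myelin adhesion protein, at 0.0798 log2 units, Phldb1 at 0.0883 and Plxnb3, a semaphorin receptor, at 0.110. The nearest to Myrf were Mobp, a structural myelin protein, at 0.0650, Plxnb3 at 0.0914 and Tmem63a at 0.0994. The nearest to Pdgfra were Dock1 at 0.0435, Gna13 at 0.0592 and the poly(A)-binding protein Pabpc1 at 0.0628, none of them in the lists used here. Of the 27 places so filled for the 9 members, of which Plxnb3 took 2, 4 were held by genes of the mature myelin list, among them Mag, Mobp and, near Enpp6, Cnp, and 0 by members. The closest pair of members was Sox10 and Myrf, 0.117 apart, and the farthest was Sox8 and Enpp6, 0.490 apart.

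Other genes of the lineage were read from the same fit, with lists arranged by role. Of 15 other progenitor genes 5 rose and 2 fell in PT, with a median log2 fold change of 0.17. The rises included Matn4, a matrix protein (1.16 ± 0.10), and C1ql1, a secreted C1q-like protein (1.28 ± 0.20). Cspg4, which encodes the progenitor proteoglycan NG2 and is also made by pericytes, rose by 0.53 ± 0.13, while the matrix protein Tnr and Lnx1 fell by 0.36 and 0.49; these 3 were chosen after their values were seen. Of 6 pericyte markers 2 rose, Pdgfrb (1.00 ± 0.16) and Vtn (0.74 ± 0.09), while Rgs5 stood at 0.19 ± 0.13.

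Of 14 listed genes of committed and newly formed oligodendrocytes, 13 were matched by symbol and tested, of which 7 rose and 0 fell (median 0.70). The signalling protein Bmp4 rose by 1.20 ± 0.20, the calcium release channel Itpr2 by 0.70 ± 0.12 and Prom1 by 0.59 ± 0.12. Of 16 mature myelin genes 9 rose and 0 fell (median 0.69), with the junction protein Cldn11 at 1.29 ± 0.24, the iron carrier Trf at 1.35 ± 0.27 and Mobp at 1.02 ± 0.23. The medians of the members, of the committed list and of the myelin list were 0.69, 0.70 and 0.69. Single genes ranged from 0.21 to 0.96, from -0.27 to 1.37 and from 0.34 to 1.35 in the same order. In Pushen against PT 0 genes of these lists were called, and the medians were -0.07 for other progenitor genes, -0.08 for committed and -0.04 for mature myelin genes. In Pushen against sham, 3 other progenitor genes rose and 1 fell, 5 committed genes rose and 4 myelin genes rose.

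Partners and regulators of the factors moved in both directions. Of 14 transcription and chromatin partners 5 rose and 3 fell in PT (median 0.09). The E protein Tcf3, a dimer partner of OLIG factors, rose by 0.70 ± 0.12 and the histone deacetylase Hdac1 by 0.55 ± 0.10, while Zeb2, which acts downstream of OLIG factors in differentiation, fell by 0.55 on the log2 scale. Of 11 genes that hold back differentiation 5 rose and 2 fell (median 0.21). They included Id4, an inhibitor of basic helix-loop-helix factors (1.13 ± 0.18), the receptor Notch1 (0.83 ± 0.14) and its ligand Jag1 (1.18 ± 0.21), all of which astrocytes also express.

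Of 11 growth factors and receptors acting on progenitors, 10 were tested, of which 5 rose and 1 fell (median 0.63). Cntf, a survival factor made by astrocytes, rose by 2.41 ± 0.36, the insulin-like growth factor Igf1 by 1.62 ± 0.28 and the FGF receptor Fgfr1 by 1.25 ± 0.15. Pdgfa, the ligand of PDGFRA, named after its value was seen, stood at 0.21 ± 0.14 and was not called (adjusted p = 0.257, edgeR). Of 8 proliferation genes 3 passed the filter, and Mcm2, a subunit of the replicative helicase, and the sliding clamp Pcna rose by 0.82 ± 0.13 and 0.24 ± 0.08, while Ccna2 stood at 0.37 ± 0.29. Mki67, the usual marker of dividing cells, was below the filter, at 0.11, 0.06 and 0.13 FPKM in sham, 0.44, 0.43 and 0.47 in PT and 0.35, 0.44 and 0.17 in Pushen. Of the other cell types, 5 of 7 neuron markers fell and 0 rose, 4 of 6 microglia markers rose, and 3 of 8 striatal and 2 of 5 tested choroid plexus markers rose. In Pushen against PT, 0 genes of any of these lists were called by edgeR.

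**Figure D5:**
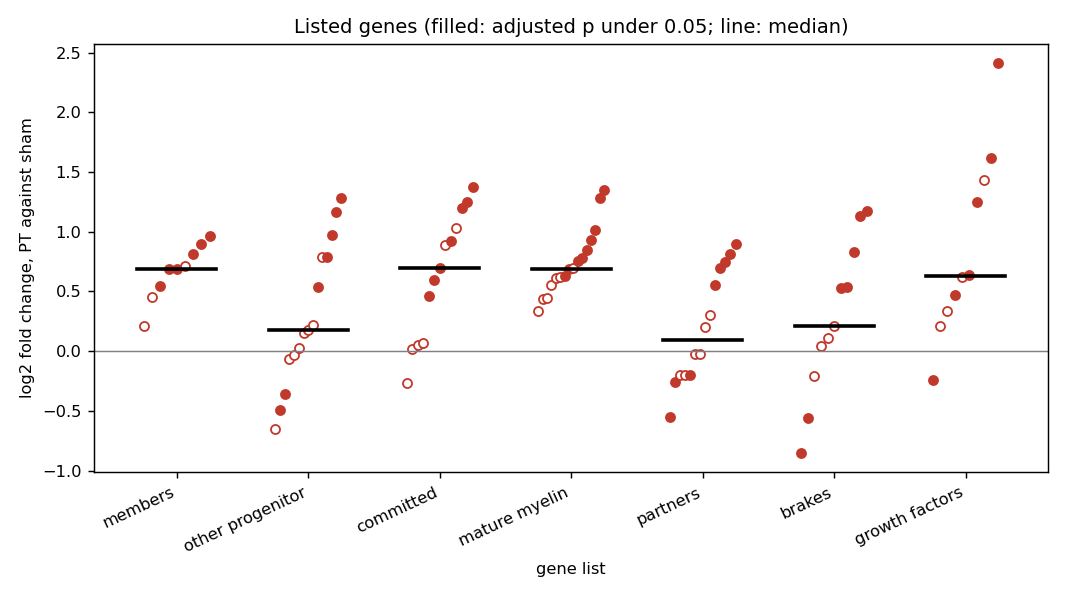
Log2 fold change in PT against sham (vertical axis) of each tested gene of the lineage lists (horizontal axis); filled points had an adjusted p under 0.05 in edgeR's quasi-likelihood test, and the line is the list's median. The medians of the members, the committed list and the mature myelin list are 0.69, 0.70 and 0.69, and that of the other progenitor genes is 0.17. Single genes of the other progenitor list range from -0.65 to 1.28.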

How the data were processed

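Libraries were prepared from total RNA with an Illumina TruSeq kit, per the labels. Gene counts were deposited by the authors as raw counts; no source used here names the counter, its annotation or a strand setting. FPKM values stand beside them, computed by the authors to 2 decimals. Bowtie 0.12.2 and mm8 are named per the submitters' processing notes, yet 51957 of the 55141 genes also found in GENCODE M21 (94.2%) carry its GRCm38 ends. No value column was left unmatched.

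The 16740 genes averaging 0.5 FPKM or more were tested on TMM-scaled counts with edgeR 4.0.16 (R 4.3.3), fitting all 9 libraries with a mean for each group and adjusting by Benjamini-Hochberg over all of them. The SE was taken as the log2 fold change divided by the root of its F value. Levels by library are log2 CPM (prior count 2) less the sham mean. Lists are described by counts and medians, with no set test. The pipeline was tested on simulated counts.

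The members and gene lists were chosen with earlier results of these data known. The rule for named genes took the members, the 3 genes of smallest p for PT against sham in each other list (some given only within a count) and the nearest 3 genes by profile, printed for 3 members; some genes it took are not reported here. Libraries within a group differed by more than sampling noise (chi-square per gene from 38.1 to 129). Alternatives were other scalings, filters and pseudocounts, DESeq2 1.42.0, limma 3.58.1, fits of 2 groups, a replicate block, a 2-fold minimum and leaving out libraries. Figures used matplotlib 3.10.9. Each labelled dose had 1 library, so dose entered no fit.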

Additional observations from a re-analysis of the deposited data

How the results depend on the processing

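The members had 180 alternative values in each comparison. For PT against sham 161 of them, for Pushen against PT 169 and for Pushen against sham 151 kept their direction and their side of the threshold. With a 2-fold minimum, 1739 genes and 0 members were called in PT against sham, and 1334 genes and 0 members in Pushen against sham. Without PT library 1 and Pushen library 2, 3 members and 3465 genes were called in PT against sham, and 2 genes in Pushen against PT. In Pushen against PT, DESeq2 called 48 genes and 1 member, and the fit of only those groups called 1 gene. In Pushen against sham, 6 members were called by DESeq2 and with only those groups, 4 with library-size scaling and with limma-trend on log2(FPKM + 0.1) or log2(FPKM + 1), and 1 with the replicate block. The share of all tested genes called in those fits is not given, so these counts are not read as a result about the members.

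Leaving out 1 library at a time gave 3198 to 5799 genes and 3 to 8 members in PT against sham, 0 to 5 genes and 0 to 0 members in Pushen against PT, and 1538 to 3736 genes and 0 to 6 members in Pushen against sham. The direction turned for Nkx2-2 under quantile normalization (-0.027 in PT against sham and -0.14 in Pushen against sham, where the split of called genes went from 2261 higher and 457 lower to 1693 and 1129). In Pushen against PT, leaving out 1 library at a time gave a log2 fold change of -0.11 to 0.28 for Gpr17, -0.33 to 0.037 for Myrf, -0.15 to 0.21 for Olig2, -0.18 to 0.37 for Enpp6 and -0.23 to 0.026 for Pdgfra. The sign turned without PT library 1 (Gpr17, Myrf), PT library 3 (Olig2, Gpr17, Enpp6), Pushen library 2 (Gpr17) or Pushen library 3 (Pdgfra). Without both PT library 1 and Pushen library 2 it turned for Gpr17 (-0.13), Nkx2-2 (0.046) and Myrf (0.12). The cause was not tested.

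No pairing of libraries by replicate number was seen: 0 of 9 same-numbered pairs had a correlation of deviations over 0.1. The highest was 0.099, for PT library 3 with Pushen library 3, and 1 of 9 libraries correlated best with its own number. Deviations were taken from means of only 3 libraries, so this check cannot exclude pairing. With the number as a block, PT against sham had 6 members and 4266 genes called, and Pushen against PT 0 of either. Pushen against sham had 1 member called, since Myrf had an adjusted p of 0.0587 (edgeR). Nkx2-2 had the fewest counts, 217 to 504 per library; the effect of depth was not measured.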
